A study of Mus musculus with 16 samples.

Results

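The genes described are Kit, Car2, Lat2 and Mdfic, which an earlier reading of these arrays picked as raised in CD8αα T cells selected by an agonist. Members were all probe sets that the platform annotation maps to these symbols, which gave 4 of 8251 named genes and 5 of 12422 probe sets. Kit (99956_at), Car2 (92642_at) and Mdfic (102644_at) have 1 probe set each, and Lat2 has 103690_at, called its _at probe set here, and 161899_f_at, called its _f_at probe set. Since the difference between CD8αα and CD8αβ T cells chose the genes, it is given as a description with no test. The comparisons in NKT and B1 cells used other arrays and were tested.

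Kit is the receptor tyrosine kinase for stem cell factor, the product of Kitl, and marks blood progenitors, the earliest thymocytes and mast cells. Car2 is the cytosolic carbonic anhydrase II, which interconverts carbon dioxide and bicarbonate and is best known from red cells, kidney and osteoclasts. Lat2, also called LAB or NTAL, is a transmembrane adaptor of the LAT family that is typical of B cells, mast cells and NK cells, where LAT itself is the adaptor of T cells. Mdfic carries an I-mfa domain, which holds back certain transcription factors and binds cyclin T1. CD8αα T cells are unconventional T cells that arise in the thymus after a strong encounter with an agonist and settle mainly in the gut epithelium.

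RNA of 6 sorted mouse lymphocyte populations was hybridised to 16 single-colour oligonucleotide arrays, 1 array per sample. CD8aaT (TCRb+CD8a+CD8b-, n = 3) and CD8abT (TCRb+CD8a+CD8b+, n = 3) came from RTOC, an abbreviation the labels leave unexpanded, CD8aaT with 10 mM and CD8abT with 100 nM of the agonist Smcy in the units of the labels. Lineage and dose changed together in this pair and cannot be told apart, and the labels give no strain for it. NKT (CD3+CD4+NK1.1+, n = 3), CD4T (CD3+CD4+NK1.1-, n = 3) and B2 (IgM(int)IgD(hi)CD11b-, n = 2) were sorted from spleen and B1 (IgM(hi)IgD(int)CD11b+, n = 2) from the peritoneal cavity, all of wild-type C57BL/6 mice whose age the labels do not give. About 100000 cells were sorted for a spleen or peritoneal sample and about 50000 for an RTOC sample, and no label says whether animals were pooled. B1 and B2 differ in tissue as well as in cell type, and these cannot be told apart.

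The arrays of a pair had similar medians, 30.4 to 31.8 in the CD8 groups, 49.6 to 54.1 in NKT and CD4T and 69.3 to 76.2 in the B cell groups. Levels are therefore compared on the log2 scale only within a pair, and across all 6 groups by the percentile of a probe set within its array. The number of arrays limits the precision of every value. The sort gates were visible for Cd8b1, at a mean log2 value of 5.36 in CD8aaT and 10.87 in CD8abT, and for Ighd, at 7.70 in B1 and 8.95 in B2. Itgam, which encodes CD11b of the B1 gate, was dim and alike in B1 and B2, at 5.37 and 5.36. Cd4, of the NKT and CD4T gates, lay at a mean percentile of 87.7 in CD4T and 79.5 in NKT. In B2, B1, CD8abT and CD8aaT it lay at 80.9, 78.6, 78.4 and 75.1, so this gate was not visible for NKT. The ratio of 3′ to 5′ beta-actin probe sets, a sign of RNA quality, was 5.15 to 5.80 in CD8aaT and 6.57 to 11.6 in CD8abT, without overlap. The same ratio for Gapdh was 7.37 to 20.9 in CD8aaT and 9.47 to 30.4 in CD8abT, which overlap. In the other groups the Gapdh ratio was 5.11 to 8.48. Replicate 1 of CD4T and of NKT stood apart from replicates 2 and 3 by the signal of 18S ribosomal RNA, at 644 and 421 against 119 to 134. In the B cell groups replicate 1 was likewise above replicate 2, at 608 against 142 in B2 and 444 against 69.5 in B1.

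The stretches upstream of Kit and Mdfic are shown because the reference used held no such window for Car2 and Lat2. In the comparison with NKT cells Kit overlapped and Mdfic differed most among the members. Both come from RefSeq on GRCm38.p6, on the plus strand, chr5:75574737-75574986 for Kit and chr6:15720411-15720565 for Mdfic. Each window ends at the base before the gene's start, which for Mdfic leaves 155 bases and for Kit 250 bases. Capitals mark the matches described after the sequences, which fell in Kit.
Kit: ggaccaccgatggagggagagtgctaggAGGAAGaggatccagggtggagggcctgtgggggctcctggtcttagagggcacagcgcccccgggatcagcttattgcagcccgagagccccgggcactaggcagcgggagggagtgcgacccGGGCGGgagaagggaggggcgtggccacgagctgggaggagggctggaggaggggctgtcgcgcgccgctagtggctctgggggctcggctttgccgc
Mdfic: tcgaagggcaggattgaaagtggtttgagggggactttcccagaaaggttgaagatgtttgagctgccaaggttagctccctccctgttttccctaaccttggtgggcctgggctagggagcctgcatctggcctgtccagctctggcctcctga
The Kit window was rich in G and C, at 70.8% against a median of 52.4% over the first 250 bases of 32851 RefSeq windows. The Mdfic window was at 56.1% against 51.0% over the first 155 bases of those windows. These first bases need not end next to a gene start, as the Mdfic window does. Both windows were searched on both strands for short letters that known factors bind. These were GATAA of the GATA factors, TGTGGT of the RUNX factors, GGGCGG of the GC box, TATAAA of the TATA box and AGGAAG of the ETS factors. Kit held GGGCGG 93 bases before its start, and 32.74% of all windows of 250 bases held it somewhere. Kit held AGGAAG 217 bases before its start, against 29.48% of windows. The matches do not overlap. No other match was found in either window, and a match or its absence describes these letters only.

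In the CD8 pair, all 4 genes were higher in CD8aaT by at least 1 probe set. Kit, Car2, Mdfic and the Lat2 _at probe set lay higher on every CD8aaT array than on every CD8abT array, while the Lat2 _f_at probe set overlapped. Over all probe sets, 5.76% lay higher on every CD8aaT array and 0.153% passed limma's test as higher, which is background to a contrast that chose the members and from which nothing is read. Fewer cells of a type and less RNA per cell cannot be told apart in such bulk samples.

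Kit, the growth factor receptor, had log2 values of 7.05, 6.17 and 6.74 in CD8aaT and of 5.14, 4.58 and 4.62 in CD8abT. The lowest CD8aaT array was thus about 1 log2 unit above the highest CD8abT array. The means were 6.65 ± 0.44 and 4.78 ± 0.31 (SD, n = 3 each), a difference of 1.87 ± 0.21 (SE of the fit), or 3.66-fold, at rank 10 from the highest of all probe sets. Kit lay at a mean percentile of 46.6 within the CD8abT arrays and of 79.2 within the CD8aaT arrays.

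Car2, the carbonic anhydrase, had the largest difference of the members. Its log2 values were 6.47, 6.89 and 7.50 in CD8aaT and 4.32, 4.46 and 4.40 in CD8abT. The CD8abT arrays lay close together and the CD8aaT arrays were spread over about 1 log2 unit. The means were 6.95 ± 0.52 and 4.39 ± 0.07 (SD, n = 3 each), a difference of 2.56 ± 0.19, or 5.90-fold, at rank 2. The percentile was 37.8 in CD8abT and 83.1 in CD8aaT.

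Lat2, the adaptor, gave different readings by its probe sets. By the _at probe set the log2 values were 6.99, 5.98 and 5.90 in CD8aaT and 4.60, 4.67 and 4.46 in CD8abT. Replicate 1 of CD8aaT was about 1 log2 unit above the other CD8aaT arrays, and the difference of 1.72 ± 0.22, or 3.29-fold, was 1.37 without it. By the _f_at probe set, whose suffix marks probes that can match a family of similar transcripts, the values were 7.33, 6.39 and 6.12 in CD8aaT and 6.88, 5.93 and 4.21 in CD8abT. These groups overlapped, and the spread within CD8abT (SD 1.35, n = 3) was larger than the difference of 0.94 ± 0.49. That difference was 0.21 without CD8abT replicate 3 and 1.55 without CD8abT replicate 1, so single arrays decided its size. The raised reading of Lat2 in CD8aaT rests on the _at probe set.

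Mdfic, the I-mfa domain protein, had log2 values of 6.82, 7.75 and 7.14 in CD8aaT and of 5.12, 5.17 and 4.85 in CD8abT. The groups stood more than 1 log2 unit apart, with means of 7.24 ± 0.47 and 5.05 ± 0.17 (SD, n = 3 each). The difference was 2.19 ± 0.32, or 4.56-fold, at rank 8. With the beta-actin ratio, which separates these groups, as a covariate chosen after seeing the data, the difference was 1.78 for Mdfic, 1.83 for Kit, 2.52 for Car2 and 1.87 for Lat2 by the _at probe set. The part of RNA quality in these differences was not tested beyond this. The members further down among all probe sets were both of Lat2, the _f_at one at rank 121 and the _at one at rank 11.

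**Figure D1:**
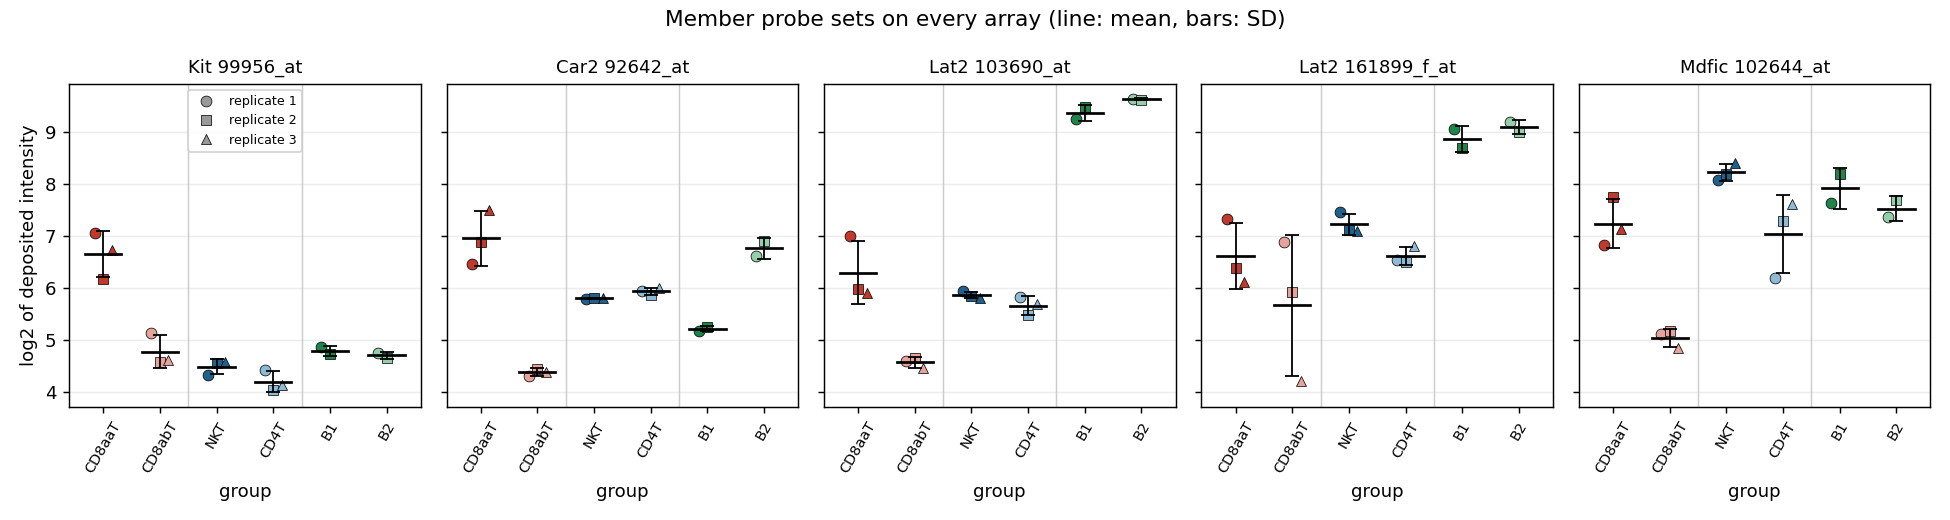
Log2 intensity of the 5 member probe sets (y axis) on each of 16 arrays by group (x axis), with a symbol per replicate, a line at the group mean and bars for the SD. CD8aaT lies above CD8abT without overlap for Kit, Car2, Mdfic and the Lat2 _at probe set, and Car2 is lower in B1 (5.22) than in B2 (6.76).

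Next, NKT cells were compared with CD4 T cells to ask whether another innate-like T cell shares these differences. By limma's test with Benjamini-Hochberg adjustment over 12422 probe sets, 0 of the 5 member probe sets passed as higher or lower, where 1.09% of all probe sets passed as higher and 0.539% as lower. At an unadjusted p under 0.05 the same test gave 1 of 5, Mdfic, where 6.21% of all probe sets lay under it. With the replicate number as a block, 1 of 5 passed, again Mdfic, where 3.12% of all passed as higher. The block was taken from correlations between these same arrays. They set replicate 1 apart, but NKT replicate 3 was as close to CD4T replicate 2 (0.67) as to CD4T replicate 3 (0.67). Every NKT array lay above every CD4T array for 2 of 5 member probe sets (7.19% of all probe sets) and below for 1 (5.02% of all).

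Mdfic had log2 values of 8.08, 8.18 and 8.41 in NKT and of 6.19, 7.28 and 7.62 in CD4T. The NKT arrays lay close together above all CD4T arrays, and CD4T replicate 1 was far below the other CD4T arrays. The means were 8.22 ± 0.17 and 7.03 ± 0.75 (SD, n = 3 each), a difference of 1.19 ± 0.32, or 2.28-fold, which missed the threshold (limma, adjusted p = 0.11). With the replicate block it passed, at adjusted p = 0.0066, and the same-numbered differences were 1.89, 0.90 and 0.78. The difference was 0.77 without CD4T replicate 1 (adjusted p = 0.26) and 1.49 without CD4T replicate 3 (adjusted p = 0.041), and over all 27 alternatives the adjusted p ran from 0.00012 to 0.40, with 3 below 0.05. CD4T replicate 1 is also the array with the highest 18S signal and a 3′ to 5′ beta-actin ratio of 7.02, against 3.59 and 3.71 in CD4T replicates 2 and 3. With that ratio as a covariate the difference was 1.10 (adjusted p = 0.077).

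Kit, raised in CD8aaT, was dim in both splenic T cell groups. Its log2 values were 4.33, 4.56 and 4.58 in NKT and 4.43, 4.05 and 4.14 in CD4T. NKT replicate 1 fell within the CD4T range, and the difference was 0.28 ± 0.21 (limma, adjusted p = 1.00, 0.40 with the replicate block).

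Car2 had log2 values of 5.79, 5.82 and 5.81 in NKT and of 5.95, 5.86 and 6.00 in CD4T. All NKT arrays lay slightly below all CD4T arrays, the opposite order to the CD8 pair, with a difference of -0.13 ± 0.19 (limma, adjusted p = 1.00). Lat2 had values of 5.94, 5.84 and 5.82 in NKT and of 5.82, 5.48 and 5.70 in CD4T by the _at probe set, which overlap, with a difference of 0.20 ± 0.22. By the _f_at probe set the values were 7.46, 7.11 and 7.10 in NKT and 6.54, 6.51 and 6.81 in CD4T, which do not overlap, with a difference of 0.60 ± 0.49. Neither Lat2 difference passed (limma, adjusted p = 1.00 for both, 0.72 and 0.27 with the replicate block).

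In the B cell pair, which asks the same of peritoneal B1 cells, 1 of the 5 member probe sets passed, in the direction opposite to the CD8 pair. Over all probe sets 0.354% passed as lower and 0.789% as higher. Both B1 arrays lay below both B2 arrays for 2 of 5 member probe sets (20.1% of all probe sets) and above for 0 (12.2% of all). At an unadjusted p under 0.05 limma gave 1 of 5, where 4.78% of all probe sets lay under it.

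Car2 fell in B1, with log2 values of 5.19 and 5.26 against 6.62 and 6.91 in B2. The groups were more than 1 log2 unit apart, and the difference of -1.54 ± 0.24 is 2.91-fold lower (limma, adjusted p = 0.0032), with both B1 arrays lower. The probe set was at rank 25 from the lowest difference of this pair. The call was kept in 26 of 27 alternatives and lost without B2 replicate 2, where the difference was -1.40. Many of these left out an array of another group, which kept the difference at -1.54 and changed only the estimated spread. Without CD8aaT replicate 3 the adjusted p was 0.00016, and on the B1 and B2 arrays alone it was 0.047 (limma). Leaving out a B cell array leaves 1 array in its group. The difference was -1.68 without B2 replicate 1, -1.505 without B1 replicate 1 and -1.58 without B1 replicate 2. The difference between the NKT and the B1 effect, tested in the same fit by a contrast added after seeing the data, was 1.41 ± 0.31 (limma, adjusted p = 0.035, where 0.773% of all probe sets passed as higher). It passed in 12 of 26 alternatives, with adjusted p from 0.00093 to 0.22, the highest again without B2 replicate 2. For the other 4 member probe sets the same contrast did not pass (limma, adjusted p = 1.00).

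Lat2 was bright in both B cell groups, the known site of this adaptor. By the _at probe set it had log2 values of 9.25 and 9.46 in B1 and of 9.63 and 9.60 in B2, and by the _f_at probe set of 9.04 and 8.69 against 9.18 and 8.99. The first probe set was lower on both B1 arrays, by -0.26 ± 0.27, and the second overlapped, at -0.22 ± 0.59, and neither passed (limma, adjusted p = 1.00). Kit had values of 4.86 and 4.73 in B1 and of 4.76 and 4.66 in B2, with a difference of 0.09 ± 0.25. Mdfic had values of 7.64 and 8.19 in B1 and of 7.36 and 7.69 in B2, with a difference of 0.39 ± 0.39. Both overlapped between the groups and neither passed (limma, adjusted p = 1.00).

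**Figure D2:**
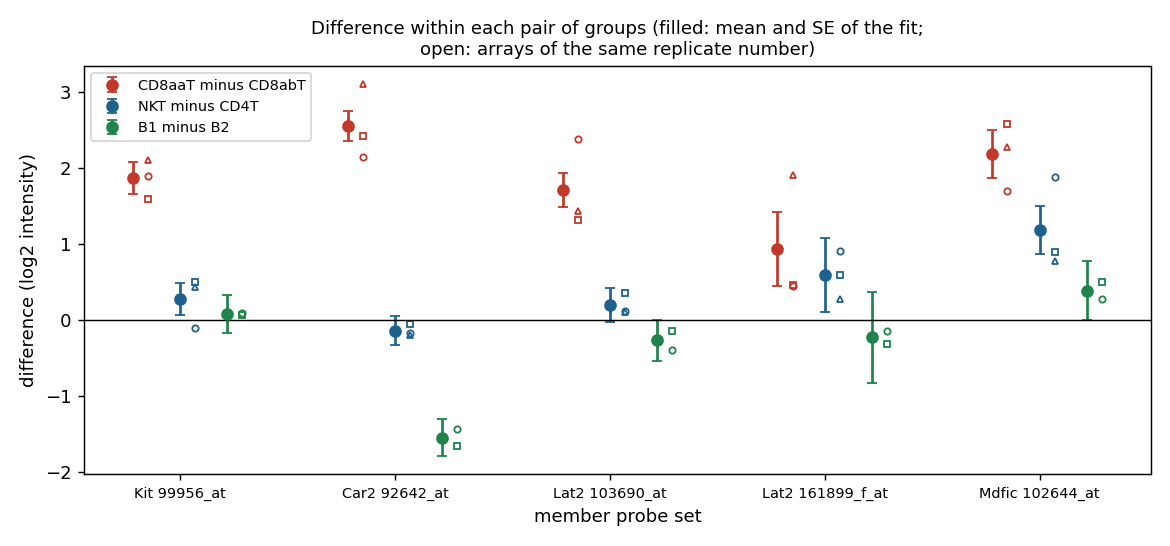
Difference in log2 intensity (y axis) for the 5 member probe sets (x axis) in the CD8, NKT and B cell pairs, with the SE of the fit as bars and the same-numbered differences as small marks. The genes were chosen on the CD8 difference, which is 1.72 to 2.56, except for the Lat2 _f_at probe set at 0.94, whose groups overlap. In the other pairs Mdfic in NKT (1.19) and Car2 in B1 (-1.54) lie farthest from 0.

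The order of the 6 groups differed from gene to gene. By percentile within the array, Kit stood at 79.2 in CD8aaT, 46.6 in CD8abT, 28.0 in NKT, 21.4 in B1, 21.3 in CD4T and 18.3 in B2. B1 and CD4T overlapped, and on log2 values minus the array median so did NKT and B1 and also CD4T and B2. Both RTOC groups were thus above the 4 groups taken from mice, which differ from them in source and in array median.

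Car2 stood at 83.1 in CD8aaT, 60.8 in B2, 54.6 in CD4T, 52.2 in NKT, 37.8 in CD8abT and 30.4 in B1, and no neighbours overlapped. CD8abT was thus near the bottom of this order for Car2 and B2 near the top. Lat2 by its _at probe set stood at 95.9 in B2, 94.4 in B1, 73.7 in CD8aaT, 53.4 in NKT, 49.6 in CD4T and 41.8 in CD8abT, again without overlap of neighbours. CD8aaT was therefore the highest of the T cell groups and below both B cell groups. By the _f_at probe set the order of groups was the same, but B2 and B1, CD8aaT and NKT, and CD4T and CD8abT overlapped.

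Mdfic stood at 88.8 in NKT, 86.2 in CD8aaT, 81.3 in B1, 75.5 in B2, 72.6 in CD4T and 51.9 in CD8abT. Only CD4T and CD8abT were apart among neighbours. On log2 values minus the array median CD4T and B2 changed places.

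**Figure D3:**
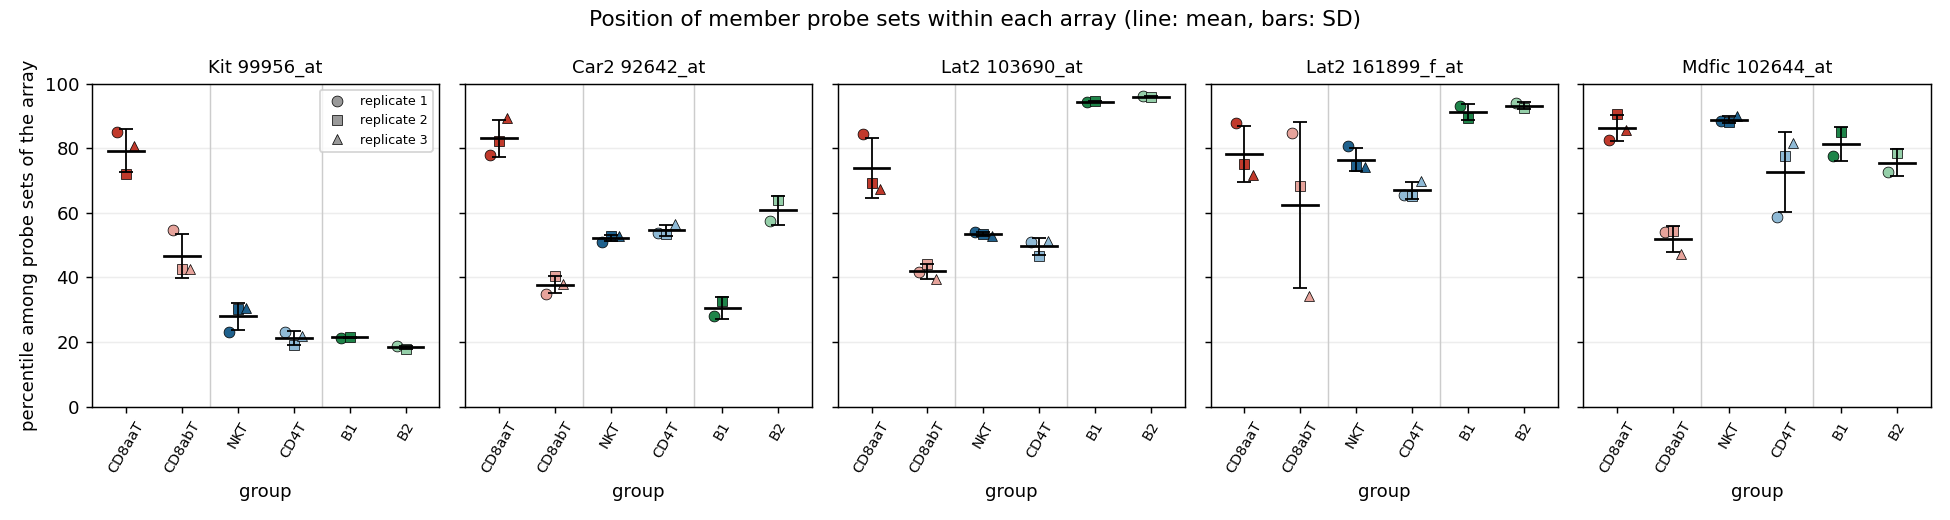
Percentile of each member probe set among all 12422 probe sets of its array (y axis, 0 to 100) by group (x axis), with a symbol per replicate, a line at the mean and bars for the SD. CD8abT has the lowest mean of the 6 groups for Lat2 and Mdfic, and B1 has the lowest for Car2 (30.4).

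The relatives of each member were read in the same pairs, by the brightest probe set of a gene and with the members left out, since the CD8 difference chose these. Of 5 relatives of Kit, 4 type III receptor tyrosine kinases and the Kit ligand, 0 passed in the CD8 pair by limma (1 unadjusted), and their median difference was -0.17 against -0.05 over all probe sets. Kitl, the ligand, differed by -0.07 ± 0.24 and lay at a mean percentile of 10.7 in CD8aaT. In NKT, Csf1r, the receptor for macrophage colony-stimulating factor, rose by 0.60 ± 0.13 (limma, adjusted p = 0.039), and the median of the 5 was -0.02 against -0.03. In B1, 0 of 5 passed by limma, also at an unadjusted p under 0.05, and the median was -0.09 against -0.05.

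Of 21 measured signal transducers and brakes downstream of Kit, 0 passed in any pair by limma, with medians of 0.06, 0.06 and -0.07 in the CD8, NKT and B cell pairs. At an unadjusted p under 0.05 there were 1, 1 and 4. With the replicate block 2 passed in NKT, the kinase Jak2 at 1.22 ± 0.30 (adjusted p = 0.00017 with the block and 0.068 without) and the docking protein Dok1 at 0.48 ± 0.27 (0.021 and 1.00).

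Of 11 transcription factors known to act on Kit, 0 passed in the CD8 pair by limma (2 at an unadjusted p under 0.05), where the median was -0.10. With the replicate block 2 passed as higher in CD8aaT, Gata3, a factor of T cell development, at 0.74 ± 0.31 (limma, adjusted p = 0.024 with the block and 0.77 without) and Ets1 at 1.08 ± 0.36 (0.017 and 0.56). In NKT 0 passed (2 unadjusted), and with the block Gata3 was higher by 0.86 ± 0.31 (0.0037 and 0.39) and Myb, a factor of immature cells, was lower by 1.84 on the log2 scale, or 3.57-fold (0.00019 and 0.12). In B1, Lmo2, a bridging partner of GATA factors, fell by 1.97 on the log2 scale (limma, adjusted p = 3.0e-06). As background to all list genes called with the block, the block raised the counts over all probe sets. In the CD8 pair 325 passed as higher and 73 as lower with it, against 19 and 4 without it. In NKT these counts were 387 and 214 with it, against 135 and 67 without it. For the unadjusted counts of lists in the CD8 pair, no share over all probe sets is given here.

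Of the 8 other measured carbonic anhydrases, 0 passed in any pair by limma, also without adjustment, while Car2 itself fell in B1. They lay between -0.33 (Car3) and 0.08 (Car5a) in the CD8 pair and between -0.12 and 0.10 in the B cell pair. Their medians were -0.11, -0.07 and -0.06 in the CD8, NKT and B cell pairs. Of 6 bicarbonate and proton transporters, 0 passed in any pair by limma, also without adjustment. In CD8aaT, Slc4a1, the anion exchanger of red cells, differed by -0.33 ± 0.17 and Slc4a2 by -0.26 ± 0.15.

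Of 3 other measured adaptors of the LAT family, 0 passed in any pair by limma. At an unadjusted p under 0.05 there were 1, 0 and 1 in the CD8, NKT and B cell pairs. Lat, the T cell adaptor, differed by -0.28 ± 0.16 in the CD8 pair. Sit1, an adaptor that restrains T cell receptor signals, was lower in CD8aaT by 1.02 on the log2 scale, or 2.03-fold, which passed with the replicate block (limma, adjusted p = 0.00070) and not without it (0.24). Pag1, which holds the kinase Csk at the membrane, differed by -1.92 ± 0.50 in B1 (limma, adjusted p = 0.12). Of 14 partners of these adaptors, 0 passed in any pair by limma (0, 2 and 1 unadjusted). The adaptor Lcp2 differed by 0.31 ± 0.42 and Fcer1g, a chain of Fc receptors, by 0.26 ± 0.19 in CD8aaT. With the block the kinase Zap70 passed in NKT, at 0.64 ± 0.20 (limma, adjusted p = 0.0041 with the block and 0.24 without).

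Of 12 relatives and partners of Mdfic, 0 passed in the CD8 pair by limma, also without adjustment. Mdfi, its closest relative and the founder of the domain family, differed by -0.14 ± 0.17 in CD8aaT, -0.03 ± 0.17 in NKT and -0.01 ± 0.21 in B1. Lef1, a partner in Wnt signalling, fell by 0.62 on the log2 scale in NKT (limma, adjusted p = 0.029). Ctnnb1, the Wnt effector beta-catenin, differed by 1.41 ± 0.93 in CD8aaT and did not pass. In B1, 0 of 12 passed by limma, also without adjustment. Their medians were -0.11, -0.03 and -0.02 in the CD8, NKT and B cell pairs.

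**Figure D4:**
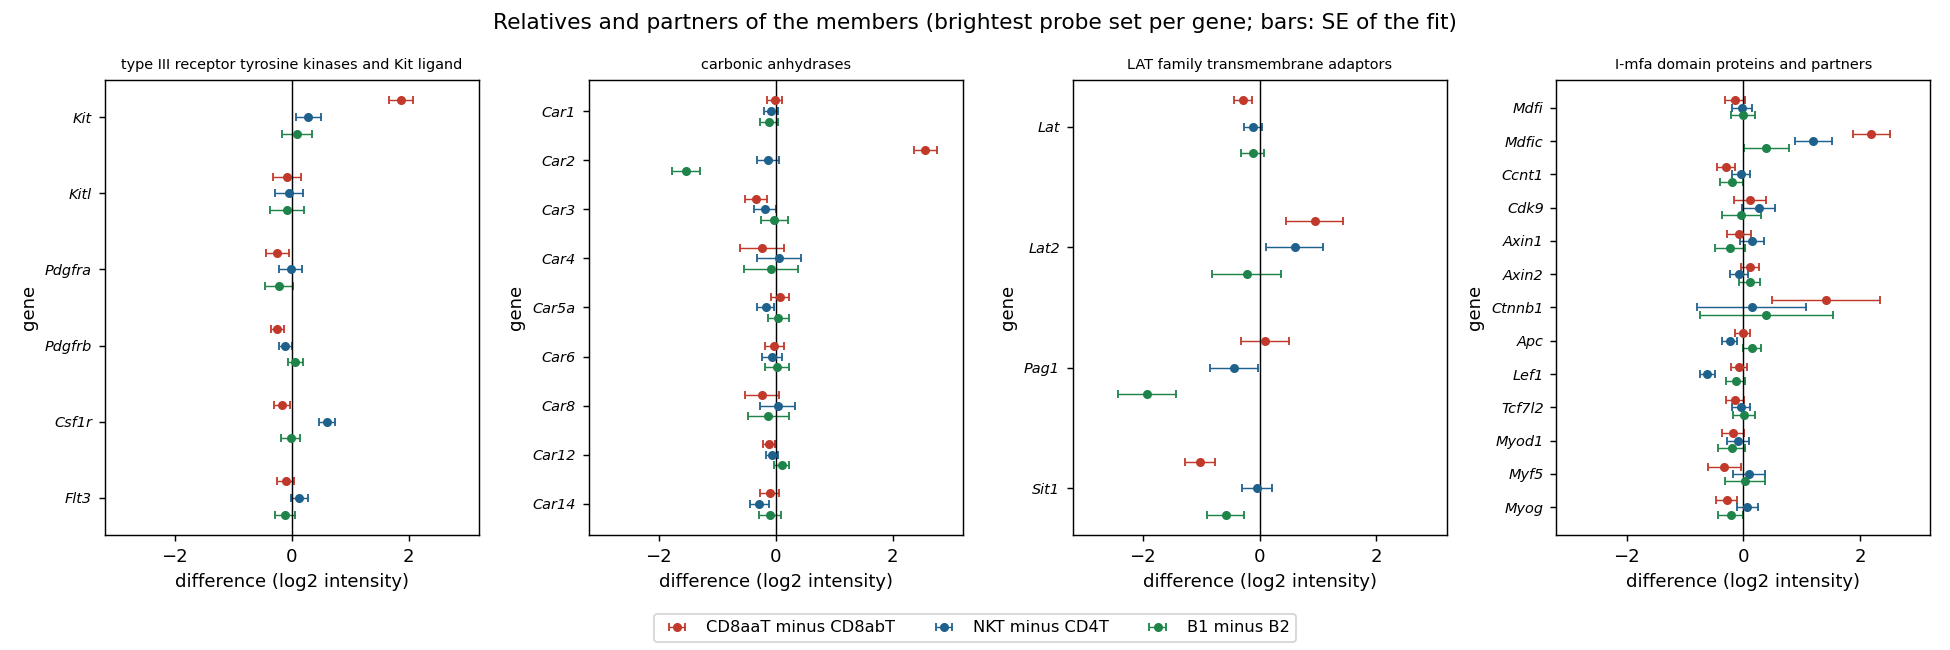
Difference in log2 intensity (x axis) of the relatives and partners of each member (y axis, genes), by the brightest probe set, in the CD8, NKT and B cell pairs, with the SE of the fit as bars. The members' CD8 differences are large by choice (1.87 for Kit, 2.56 for Car2 and 2.19 for Mdfic), and outside that pair Car2 in B1 (-1.54) and, in NKT, Csf1r (0.60) and Lef1 (-0.62) passed the test.

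Of 9 genes induced by strong antigen-receptor signals, Bcl2l11, which encodes the death protein Bim, rose in CD8aaT by 1.24 ± 0.20 (limma, adjusted p = 0.026). Tnfrsf18, the receptor GITR, was higher by 0.90 ± 0.17, which passed with the replicate block (limma, adjusted p = 0.0033) and not without it (0.0505). Cd5, a brake on antigen-receptor signals, was at -0.92 ± 0.37 there, which passed as lower with the block (0.0044) and not without it (0.74). Tnfrsf18 rose in NKT by 1.00 ± 0.17 (limma, adjusted p = 0.0045). With the block Cd5, at -0.95 ± 0.37, and Nr4a1, at -0.50 ± 0.35, passed as lower in NKT (limma, adjusted p = 0.00084 and 0.017 with the block, 0.51 and 1.00 without). In CD8aaT, Nr4a1 and Egr1, both immediate-early genes, differed by -0.16 ± 0.35 and -0.05 ± 0.37. The list's median was -0.05, equal to that of all probe sets, and in B1 0 of 9 passed (1 unadjusted).

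Kit and Lat2 are also genes of mast cells, Car2 of red cells, Kit of progenitors and Lat2 of B cells, so markers of those cells were read beside them. Of 20 mast cell and granulocyte markers, 0 passed in any pair by limma, with 1, 0 and 0 unadjusted. In the CD8 pair 4 of 20 were above 0, where 39.17% of all probe sets were. Their summed intensity was 555 to 595 in CD8aaT against 631 to 682 in CD8abT. Ms4a2 and Fcer1a, chains of the IgE receptor that define mast cells, were within the lowest 9 percentiles of every array, at most at 8.6. Cpa3, the mast cell carboxypeptidase, differed by -0.42 ± 0.29. Of 8 erythroid markers, 0 passed in any pair by limma, also without adjustment. In the CD8 pair 0 of 8 were above 0, beside the same 39.17% of all probe sets. The sums were 218 to 232 in CD8aaT and 224 to 278 in CD8abT.

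Of 14 progenitor and early thymocyte markers, 0 passed in the CD8 pair by limma (4 unadjusted). There 4 of 14 were above 0, where 39.17% of all probe sets were, and the median was -0.08. The sums were 1157 to 1699 in CD8aaT and 1284 to 1847 in CD8abT. With the block, Il7r, the interleukin 7 receptor, was higher in CD8aaT by 1.71 ± 0.41 (limma, adjusted p = 0.011 with the block and 0.18 without), and Notch1, a receptor of early T cell development, was lower, at -0.71 ± 0.17 (0.024 and 0.22). Of 8 double-positive thymocyte markers, 0 passed in the CD8 pair by limma (3 unadjusted) and all 8 were below 0, with a median of -0.43. With the block 1 of them, not named here, passed as lower in the CD8 pair. In the other pairs 1 passed as lower in each without the block. These were Dntt, the enzyme that adds bases at receptor joints, at -0.71 in NKT, and Satb1, a chromatin organiser, at -2.62 in B1 (limma, adjusted p = 0.049 and 0.032). These lists held 1 lower call in B1 and 0 in NKT for progenitors, Lmo2 being that call.

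Of 10 B cell markers, 0 passed in the CD8 pair by limma (1 unadjusted, Blk), with sums of 369, 946 and 486 in CD8aaT replicates 1 to 3 and of 353 to 421 in CD8abT. The excess in replicates 2 and 3 was Blk, a Src family kinase of B cells, at log2 values of 4.06, 9.21 and 7.02 in CD8aaT. In NKT and CD4T the B cell markers summed to 1996 and 1561 in replicate 1 and to 944 to 1218 in the others, and Cd72 rose in NKT by 1.90 ± 0.38 (limma, adjusted p = 0.016). The part of B cell RNA in the levels of Lat2 was not tested in any of these groups. In B1, 4 of 10 passed as lower, namely Cd72 at -4.05 ± 0.46, Fcer2a at -2.88 ± 0.18, Cr2 at -2.06 ± 0.19 and Cd22 at -0.87 ± 0.17, and Car2 fell on the same arrays.

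Of 12 macrophage and dendritic cell markers, 0 passed in the CD8 pair by limma (1 unadjusted), 2 passed as higher in NKT and 1 in B1. With the block 1, not named here, passed as lower in CD8aaT. Lyz2, lysozyme, was the gene that passed as higher in B1, at 2.29 ± 0.43, and in NKT it rose by 2.08 ± 0.35 beside Csf1r (limma, adjusted p = 0.0047). The summed intensity was 685 to 857 in NKT, 502 to 720 in CD4T, 323 to 341 in CD8aaT and 354 to 396 in CD8abT. Of 12 stromal markers, 0 passed in the CD8 pair by limma (1 unadjusted), with sums of 478 to 646 in CD8aaT and 556 to 688 in CD8abT, and Epcam, an epithelial adhesion molecule, rose in B1 by 1.17 ± 0.15. The part of such cells in the Mdfic level of NKT was not tested.

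Of 11 NK cell markers, 2 passed as higher in CD8aaT, Cd244a at 2.30 ± 0.18 and Klrd1 at 2.20 ± 0.37 (limma, adjusted p = 2.3e-05 and 0.031), and 5 passed as higher in NKT, Klra3, Klrk1, Klrd1, Tyrobp and Prf1. With the block 4 passed as higher in CD8aaT and 6 in NKT. Their summed intensity was 993 to 1351 in CD8aaT and 363 to 570 in CD8abT, and 1285 to 1834 in NKT against 422 to 531 in CD4T. The part of NK cells in the values of the members was not tested. Of 11 T cell markers, 0 were above 0 in the CD8 pair, where 39.17% of all probe sets were. Their median was -0.37 against -0.05 over all probe sets. Cd8a and Cd8b1, both genes of the gate, passed as lower in CD8aaT by limma, and with the block 5 did, among them Cd2 at -1.22 ± 0.24, Thy1 at -0.91 ± 0.31 and Cd6 at -0.66 ± 0.18 (limma, adjusted p = 0.0045, 0.034 and 0.037 with the block and 0.064, 0.58 and 0.32 without). The summed intensity of these markers, Cd8a and Cd8b1 included, was 2864 to 4599 in CD8aaT and 5237 to 8786 in CD8abT. In NKT and B1, 0 of 11 passed by limma (2 and 1 unadjusted). The part of this difference in the values of the members was not tested.

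Across all 16 arrays, with values centred on the mean of each pair, the probe sets most like Kit by Pearson's r were Cd244a (0.95), the Lat2 _at probe set (0.93), Glce (0.88), Klrb1a (0.84) and Nrgn (0.82). Those most like Car2 were Zfp36l1 (0.89), Tsc22d1 (0.89), Bcl2l11 (0.85), Klrb1a (0.83) and Perp (0.81). Those most like Mdfic were Ei24 (0.93), Ccdc50 (0.93), Leprot (0.92), Srgn (0.91) and AU020206 (0.90). For Lat2 by the _f_at probe set they were Pax6 (0.88), Trav9d-3 (0.88), Pacrgl (0.85), Cbx6 (0.85) and Selenok (0.85), probe sets whose own differences in the CD8 pair were 0.36 or less. The arrays share replicate numbers and RNA quality as well as cell types, and the CD8 pair that chose the members is among them, so these values are descriptions.

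Between members, several correlations were lower without the CD8 pair. Kit and the Lat2 _at probe set correlated at 0.93 over 16 arrays and at 0.39 over the 10 arrays without the CD8 pair. Kit and Car2 went from 0.77 to -0.24, Car2 and Mdfic from 0.64 to -0.25, and Kit and Mdfic from 0.72 to 0.27. Both Lat2 probe sets correlated at 0.61 over 16 arrays and 0.58 over the 10.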

How the data were processed

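The authors deposited linear intensities, 1 per probe set and array, made with RMA per the submitters' processing notes. The version of RMA, its settings, a genome build and the sets of arrays that it normalized jointly were not given in the sources used here. RMA compresses differences of dim probe sets, which touches several members. In CD8abT the mean log2 value was 4.39 for Car2, 4.58 for Lat2 by the _at probe set and 4.78 for Kit.

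Of 12488 probe sets, 66 controls were left out. Of the 12422 tested, 10833 had 1 gene symbol in the platform annotation, 396 several and 1193 were not listed, and all 5 member probe sets matched the RefSeq table of GRCm38.p6 by Entrez number. Dim probe sets were kept. Log2 values were fitted with limma 3.58.1 in R 4.3.3 (6 group means over 16 arrays, two-sided, Benjamini-Hochberg over 12422 probe sets, called under 0.05), after a test on simulated data. The series calls its replicates biological without naming animals or sorts. The p-values therefore reflect only how these samples vary, which may be technical.

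The replicate number was taken to pair the arrays of the T cell groups in the fit with the replicate block, while the main fit ignores this pairing. Deviations from the group means of same-numbered arrays correlated at 0.76, 0.65 and 0.67 for replicates 1, 2 and 3 of the NKT pair, and at 0.64, 0.60 and 0.66 for those of the CD8 pair, above the minimum of 0.1. In the B cell groups the value was 0.69 over 2 arrays per group, too few to settle a pairing, though the block was applied to them as well. The pairing comes from these data and not from a label, and replicates 2 and 3 of the NKT pair were correlated even between different numbers (0.57 and 0.67).

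The members and the 18 gene lists were chosen with earlier results of these data known. Lists were counted by the probe set of each gene with the highest mean. Named genes are the members, the 5 probe sets most correlated with the brightest probe set of each, list genes called in any pair, and up to 2 with the largest CD8 difference from a list with none called. Genes named outside this rule, among them those called with the block, were chosen after their values were seen.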

Additional observations from a re-analysis of the deposited data

Results flagged for a closer look

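Car2 differed in sign between pairs, though its NKT difference was small and did not pass. Its log2 difference was -0.13 ± 0.19 in NKT minus CD4T, with every NKT array lower, as for 5.02% of all probe sets. It was -1.54 in B1 minus B2, with both B1 arrays lower, as for 20.1% of all probe sets. In contrast, every CD8aaT array was higher than every CD8abT array. These contrasts with the CD8 pair were not tested, since the CD8 difference chose the gene. The difference between the NKT and the B1 effect of Car2 was tested in 1 limma fit and came to 1.41 ± 0.31 (adjusted p = 0.035). It passed in 12 of 26 alternatives, with values from 0.94 to 1.55.

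Lat2 by its _at probe set was lower on both B1 arrays than on both B2 arrays, as were 20.1% of all probe sets. That difference, -0.26 ± 0.27, did not pass. The same probe set was higher on every CD8aaT array than on every CD8abT array. The contrast between these pairs was not tested. By the _f_at probe set both pairs overlapped.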

How the results depend on the processing

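The 5 member probe sets kept the sign of their differences in all alternatives run, in all 3 pairs. The number called in NKT, 0, became 1 with the replicate block, 3 with gene-by-gene array weights and 0 to 1 with 1 array left out. The number called in B1, 1, was 0 to 1 with 1 array left out.

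Counts over all probe sets moved more. With the replicate block 398, 601 and 353 passed in the CD8, NKT and B cell pairs instead of 23, 202 and 142. Without replicate 1 of every group the counts were 190, 356 and 227, and with gene-by-gene array weights 89, 2028 and 241. The CD8 count was 2 on its 6 arrays alone, 9 with an offset of 32 before the logarithm and 11 with the beta-actin covariate. The B cell count was 50 on its own arrays, 214 with the offset and 71 without dim probe sets, where the NKT count was 133. With 1 array left out the counts ran from 10 (without CD8aaT replicate 2) to 57 (without CD4T replicate 1) in the CD8 pair, from 134 (without NKT replicate 2) to 242 in NKT and from 64 (without B2 replicate 2) to 164 in the B cell pair. The cause was not tested.

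The offset, which shrinks dim values, moved the CD8 differences to 1.16 for Kit, 1.57 for Car2, 1.496 for Mdfic and 1.00 for Lat2 by the _at probe set. In B1 the fit with the replicate block gave Car2 an adjusted p of 0.00085 and changed no member's call. By rank correlation, 3, 3, 0 and 4 of the 5 probe sets most like Kit, Car2, Lat2 (_f_at) and Mdfic were the same. Kit has no value without dim probe sets, being among those left out. Array weights by limma's default method did not converge and were not used. The beta-actin covariate and the gene-by-gene weights were chosen after seeing the data. Which probe sets were above background is not known from these values, so a dim level such as that of Kit in spleen is not shown to be absence.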
